A study of Homo sapiens with 24 samples.

Results

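Named antisense long non-coding RNAs (lncRNAs) were described in HEK293, an established cell line from human embryonic kidney, in which a nuclear lamin was overexpressed. The set held every lncRNA row of the deposited small RNA table whose name ends in -AS and a number, names of the HOX clusters left out. This gave 8751 intervals with 1281 names, 4.97% of the 175946 annotated features. A name had from 1 to 230 overlapping intervals, with a median of 3, and an interval spanned from 254 to 854480 bp. Cells of an otherwise wild-type genotype overexpressed eGFP (the control, GFP), LMNA, LMNB1 or LMNB2. Each of the 4 groups had 3 small RNA and 3 ATAC-seq libraries, 24 in all. The labels do not say whether replicates came from separate cultures, so the p-values measure the spread between these libraries, which may be technical. The title concerns RNA polymerase III. The labels give neither the vector nor the time of overexpression.

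An antisense lncRNA is transcribed from the strand opposite to a neighbouring gene and is named after that gene, here called the sense gene. Many start close to the promoter of the sense gene and run away from it, while others start inside or beyond the gene and run through it. Some are known to act on the sense gene in cis, and several are hosts of small nucleolar RNAs (snoRNAs) or microRNAs, which are cut from the introns of the host transcript. Lamins are the filament proteins under the inner nuclear membrane and bind broad, mostly silent stretches of chromatin.

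Where RefSeq lists the sense gene, the name could be checked against position for 1016 names. All intervals lay on the strand opposite to the sense gene for 1007 of them (99.1%), and at least 1 interval overlapped the sense gene for 913 (89.9%). The start sites were within 1000 bp of each other, in a head-to-head arrangement, for 365 names (35.9%), and 616 (60.6%) overlapped with starts further apart. The counts ignored strand. Small RNA features with a mean of at least 100 counts that lie on the opposite strand inside a lncRNA interval made 508 such pairs, and the interval's count was at least as high as that of the feature in 100% of them. Reads of an antisense lncRNA, of its sense gene and of any small RNA inside the interval therefore cannot be told apart, and a count below is a count of the interval.

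Sequences of 3 microRNAs are shown first, because they supply most of the reads of their antisense intervals (GNAS-AS1 and ANKRD34C-AS1, chosen after their values were seen). The mature forms are from RefSeq (GRCh38.p14), 5′ to 3′, with the seed (bases 2 to 8) in capitals.
hsa-miR-296-3p (GNAS-AS1): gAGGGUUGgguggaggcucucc
hsa-miR-296-5p (GNAS-AS1): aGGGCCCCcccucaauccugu
hsa-miR-184 (ANKRD34C-AS1): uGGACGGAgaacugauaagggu
The 3 seeds differ. MIR296 is on the strand of GNAS-AS1, the antisense transcript of the imprinted GNAS locus, and features inside supplied 83.5% of its counts. MIR184 lies on the strand opposite to ANKRD34C-AS1, where features inside supplied 70% of the counts. GNAS-AS1 had small RNA levels of 0.615 ± 0.127 CPM (counts scaled to library size, mean ± SD, n = 3) in GFP and 0.466 ± 0.0537 with LMNB2, and ANKRD34C-AS1 had 0.173 ± 0.0599 and 0.145 ± 0.0324. Neither difference passed the test.

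Promoters are shown for the antisense names of zinc finger genes that rose together after LMNB2 overexpression, and for 2 names that fell. Each run covers 250 bases before to 50 after the start (RefSeq, GRCh38.p14), 5′ to 3′ on the strand of the lncRNA, with GGGCGG or its reverse complement in capitals. RefSeq lists 2 promoters for ZNF667-AS1, and the one shown lies upstream of the interval described below and outside it. GGGCGG is the core of the GC box, a promoter element.
ZNF649-AS1 (chr19:51887775-51888074, plus strand): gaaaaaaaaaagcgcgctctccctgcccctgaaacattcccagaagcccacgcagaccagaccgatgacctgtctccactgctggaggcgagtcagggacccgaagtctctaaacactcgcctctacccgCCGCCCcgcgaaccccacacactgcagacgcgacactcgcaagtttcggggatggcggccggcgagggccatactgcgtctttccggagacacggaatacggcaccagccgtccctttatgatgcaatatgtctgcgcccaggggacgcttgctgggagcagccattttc
ZNF667-AS1 (chr19:56477624-56477923, plus strand): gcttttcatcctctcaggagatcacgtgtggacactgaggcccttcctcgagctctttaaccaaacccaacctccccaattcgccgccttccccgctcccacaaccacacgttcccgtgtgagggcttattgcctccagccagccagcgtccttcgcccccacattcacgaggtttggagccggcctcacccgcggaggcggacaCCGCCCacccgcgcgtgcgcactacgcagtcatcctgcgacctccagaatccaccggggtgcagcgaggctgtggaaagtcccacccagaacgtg
ZNF350-AS1 (chr19:51948884-51949183, plus strand): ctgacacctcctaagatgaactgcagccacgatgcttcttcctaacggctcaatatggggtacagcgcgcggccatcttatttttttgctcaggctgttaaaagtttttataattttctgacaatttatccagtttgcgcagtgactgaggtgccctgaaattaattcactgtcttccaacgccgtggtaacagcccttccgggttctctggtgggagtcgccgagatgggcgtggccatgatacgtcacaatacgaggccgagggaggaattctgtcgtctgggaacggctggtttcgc
ZNF433-AS1 (chr19:11987367-11987666, plus strand): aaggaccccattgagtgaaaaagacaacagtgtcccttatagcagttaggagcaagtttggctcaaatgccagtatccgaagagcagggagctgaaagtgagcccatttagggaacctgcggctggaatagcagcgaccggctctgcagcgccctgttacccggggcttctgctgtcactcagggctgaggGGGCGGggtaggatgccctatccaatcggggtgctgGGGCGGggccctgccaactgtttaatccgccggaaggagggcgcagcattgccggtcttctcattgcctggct
ZNF790-AS1 (chr19:36797313-36797612, plus strand): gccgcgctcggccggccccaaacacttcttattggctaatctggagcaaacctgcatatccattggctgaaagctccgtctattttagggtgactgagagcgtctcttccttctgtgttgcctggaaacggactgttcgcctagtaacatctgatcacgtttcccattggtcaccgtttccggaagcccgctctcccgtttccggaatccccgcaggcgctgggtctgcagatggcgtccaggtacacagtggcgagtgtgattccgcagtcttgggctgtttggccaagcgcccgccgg
PAX6-AS1 (chr11:31816316-31816615, plus strand): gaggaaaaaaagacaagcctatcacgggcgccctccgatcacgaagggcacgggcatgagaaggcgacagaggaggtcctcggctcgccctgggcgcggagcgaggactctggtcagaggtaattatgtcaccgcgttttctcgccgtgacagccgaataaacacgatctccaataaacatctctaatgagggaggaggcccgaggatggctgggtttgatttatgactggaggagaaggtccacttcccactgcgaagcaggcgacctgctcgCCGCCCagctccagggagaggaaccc
OPA1-AS1 (chr3:193627283-193627582, minus strand): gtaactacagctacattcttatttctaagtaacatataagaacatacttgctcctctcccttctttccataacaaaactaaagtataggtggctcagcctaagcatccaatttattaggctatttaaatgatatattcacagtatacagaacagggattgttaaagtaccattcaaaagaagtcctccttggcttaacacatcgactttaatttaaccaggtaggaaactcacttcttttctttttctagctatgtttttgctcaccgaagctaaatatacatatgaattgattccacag
The runs for ZNF649-AS1, ZNF667-AS1 and PAX6-AS1 held 1 copy of GGGCGG, ZNF433-AS1 held 2, and the other 3 held none. ZNF790-AS1 held CCAAT 3 times. Over both strands, GGGCGG occurred in 356 of 937 promoters of 834 antisense names (38%) and in 15786 of all 35116 promoters in the table (45%). For CCAAT, whose end bases can overlap a copy of GGGCGG, the shares were 32.4% and 34.6%. The OPA1-AS1 run had 2 CG dinucleotides, against a median of 11 over the promoters of antisense names and 14 over all promoters.

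Total counts were 132.5 to 195.1 M per small RNA library and 156 to 290.2 M per ATAC library, with reads over overlapping features counted at each of them. Features over the overexpressed genes were checked as far as the tables allow. In small RNA, 8 of 8 tested features over LMNB2 rose in the LMNB2 libraries (log2 fold changes 6.22 to 9.77), and 3 of 5 over LMNB1 rose in the LMNB1 libraries. The 1 tested feature over LMNA was at -0.09, and 1 of 6 ATAC windows there was called, at up to 8.65. Trimmed-mean (TMM) scaling factors of the small RNA libraries ran from 0.63 (GFP replicate 1) to 1.31 (GFP replicate 3), and those of LMNB2 were 1.06 to 1.16. In bulk samples such as these, fewer cells with a transcript and less of it per cell cannot be told apart.

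Small RNA levels of most antisense intervals were low. The median interval had a mean of 4.25 counts per library and 264 intervals were at 0 in every library. After the count filter 3108 intervals (35.5%) of 503 names were tested, within a fit of 33893 features. Each name is represented below by its tested interval with the highest mean count, and levels are CPM (counts scaled to the TMM-adjusted library size), as mean ± SD of n = 3.

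A small RNA of another class gave most of the reads in many of the antisense intervals with high counts, though PAX6-AS1 (mean 1972 counts per library) and BAALC-AS1 (1174), described below, held none. Of the 503 tested names, 168 had such a feature inside, and for 24 of them it supplied at least 50% of the counts. These 24 names held 84.5% of the counts summed over the tested names, and LRRC75A-AS1 alone took most of that, as the sum without it was 24.6% of the total. The features were a snoRNA in 4 names, a transfer RNA (tRNA) in 4, a Y RNA in 8, a microRNA in 2, a small nuclear RNA in 3, a 5S rRNA-like sequence in 2 and a signal recognition particle RNA in 1.

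LRRC75A-AS1 (chr17:16438962-16470673) hosts the box C/D snoRNA SNORD49A, and features inside supplied 99.9% of its counts. Its level was 627, 529 and 890 CPM in GFP, 383, 416 and 1493 under LMNA, 395, 454 and 409 under LMNB1, and 340, 384 and 351 in LMNB2. GFP replicate 3 and LMNA replicate 3 stood above all other libraries, and the LMNB2 libraries lay below the 3 GFP libraries. The difference between LMNB2 and GFP did not pass edgeR's quasi-likelihood test (log2 -0.93 ± 0.42 SE, Benjamini-Hochberg adjusted p = 0.23).

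Among the other snoRNA hosts, EPB41L4A-AS1 (SNORA13 inside, 97% of counts) was at 3.86 ± 1.71 CPM in GFP and 2.64 ± 0.165 in LMNB2. THAP9-AS1 held 2 features, SNORD143 the higher, which together supplied 94.2% of its counts. It was at 4.16 ± 0.588 CPM in GFP, 5.14 ± 0.375 under LMNA, 5.71 ± 0.584 in LMNB1 and 5.33 ± 0.26 in LMNB2. Neither EPB41L4A-AS1 nor THAP9-AS1 passed the test in any lamin. LIMD1-AS1, which overlaps the gene tRNA-Arg-ACG-2-5 (98.2% of counts), was at 15.5 ± 5.03 CPM in GFP and 10.6 ± 0.528 in LMNB2. ZNF436-AS1, with a Y RNA inside (99.7%), was at 9.17 ± 2.82 and 8 ± 0.879. LZTS1-AS1, with a 5S rRNA-like sequence inside (99.8%), was at 3.65 ± 1.3 CPM in GFP and 5.39 ± 0.813 in LMNB2 (log2 0.56 ± 0.23, edgeR adjusted p = 0.187), and the groups overlapped. Per kilobase LRRC75A-AS1 was the highest of these at 17.5 CPM, followed by ZNF436-AS1 (2.9), LIMD1-AS1 (1.06), EPB41L4A-AS1 (0.899), LZTS1-AS1 (0.283) and THAP9-AS1 (0.257). Y RNAs, tRNAs and 5S rRNA are products of RNA polymerase III, whereas these snoRNAs are spliced from polymerase II transcripts. By representative interval, called changes were 0 of these 24 names in each lamin, against 12 of all 503 names in LMNB2. The difference was not tested. For DGUOK-AS1, one of the 24, another interval was called in LMNB2 and is given below.

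**Figure D1:**
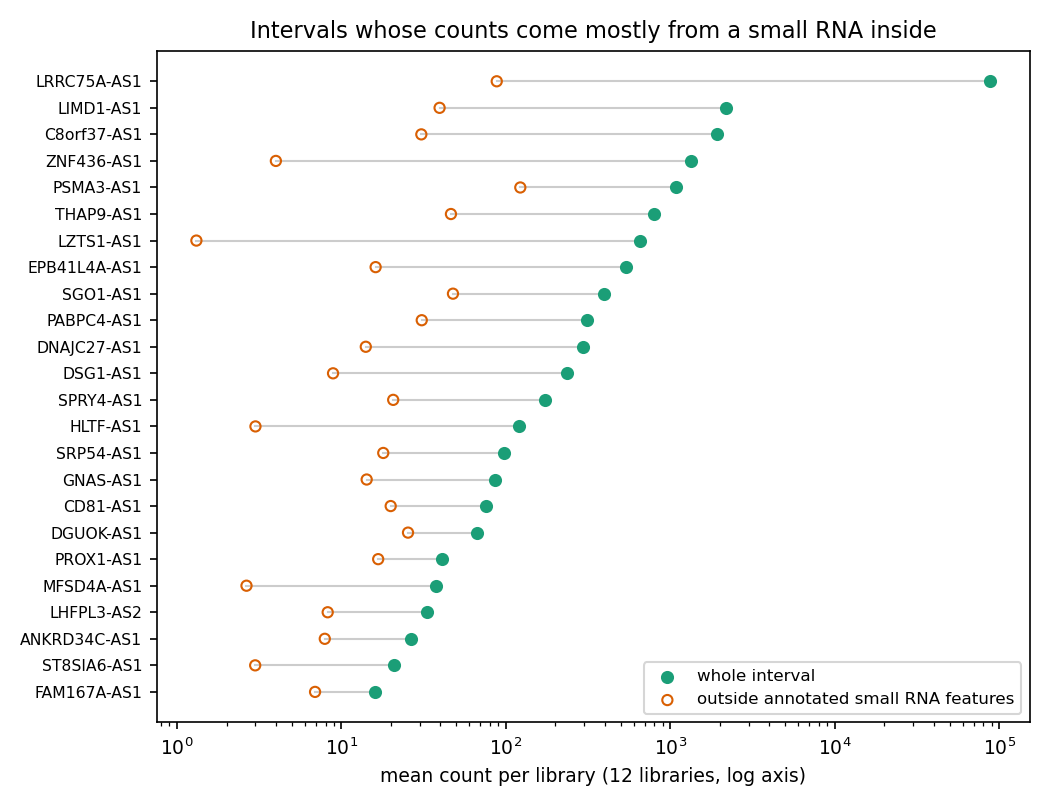
Mean small RNA count per library (12 libraries, log axis) of the 24 antisense intervals in which annotated small RNA features supply at least 50% of the counts. Filled points are the whole interval and open points are what is left outside the small RNA features. LRRC75A-AS1, at a mean of 87995 counts, is far above the rest, and its open point is close to those of names with much lower totals.

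Among names without a small RNA inside, the highest levels per kilobase were in 4 short intervals and 2 longer ones, PAX6-AS1 and BAALC-AS1. PCNA-AS1 (chr20:5119561-5119994), antisense to the DNA sliding clamp gene, had 0.292 CPM per kb. DDIT4-AS1 had 0.178, PAX6-AS1 0.176, BAALC-AS1 0.152, CHMP1B-AS1 0.124 and FOXD1-AS1 0.123 CPM per kb. The spread between replicates was wide in some of these. BAALC-AS1 was at 13.4, 19.8 and 1.21 CPM in GFP and at 2.52, 10.1 and 1.36 under LMNA, but at 6.87 to 8.58 in LMNB1 and 6.4 to 8.82 in LMNB2. Replicate 3 was the low library in both GFP and LMNA, so the groups overlapped. PCNA-AS1 had 3, 13 and 26 counts in GFP and 26, 37 and 21 in LMNB2, and its log2 difference of 0.85 ± 0.33 did not pass (edgeR adjusted p = 0.166).

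The first comparison asked which antisense intervals differ between LMNA and GFP. None was called at an adjusted p under 0.05 (edgeR), where the background over all features is 0%. At an unadjusted p under 0.05 there were 101 intervals (3.25% of those tested, against 5.46% of all features), and the lowest adjusted p was 0.882 (edgeR). DESeq2 called 0 antisense intervals, among 70 features called in all. The names with the lowest p are given as values. VIM-AS1, antisense to the intermediate filament gene VIM, was at 0.318, 0.235 and 0.27 CPM in GFP and 0.411, 0.449 and 0.327 in LMNA (log2 0.51 ± 0.18). All 3 LMNA libraries lay above GFP. INHBA-AS1, antisense to an activin subunit gene, was at 0.104 ± 0.0722 CPM in GFP and 0.23 ± 0.0513 in LMNA. On the lower side, F11-AS1 was at 0.148 ± 0.0712 CPM in GFP and 0.0627 ± 0.00676 under LMNA, and MAST4-AS1 at 0.0842 ± 0.0105 and 0.0336 ± 0.0142. ELF3-AS1 (log2 0.57), PITPNA-AS1 (0.55), DENND5B-AS1 (-0.84) and ADAMTSL4-AS1 (-0.58) complete the 4 per direction. Without GFP replicate 3 there were 4 called intervals, all of 1 name, among 304 features called in all.

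LMNB1 against GFP likewise gave 0 called intervals (edgeR), with a background of 0.0384%. An unadjusted p under 0.05 was reached by 229 intervals (7.37%, against 5.51% of all features). DESeq2 called 0 antisense intervals, among 21 features called in all. ZSCAN16-AS1, antisense to a zinc finger gene of the SCAN family, was at 0.155, 0.25 and 0.186 CPM in GFP and at 0.302, 0.33 and 0.348 in LMNB1. The 3 LMNB1 libraries lay above GFP, with a log2 difference of 0.69 ± 0.18 and an adjusted p of 0.713 (edgeR). RMDN2-AS1 was at 0.0472 ± 0.0228 CPM in GFP and 0.0953 ± 0.0252 in LMNB1. FRMD6-AS2 (log2 0.64) and THAP9-AS1 (0.46) followed, and on the lower side MMP25-AS1 (-0.93), GPC6-AS2 (-1.0), CSE1L-AS1 (-0.74) and ZBED3-AS1 (-0.64). Without the count filter 7 intervals of 3 names were called, all lower, among 127 features called in all.

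LMNB2 against GFP gave 82 called intervals of 18 names. The share, 2.64% of the intervals tested, is close to the background of 2.66%, so the number of calls is not a feature of antisense lncRNAs. Lists of similar kind gave like shares, with 2.7% of intervals of divergent promoter lncRNAs (names ending in -DT) and 2.9% of LINC intervals. Of the 3108 antisense intervals tested, 70 (11 names) rose and 12 (7 names) fell. Over all 33893 features, 646 rose (1.91%) and 255 fell (0.752%). Intervals of a name share reads. With scaling by total counts alone, 44 rose and 0 fell among 282 features called in all, and with DESeq2's own test 47 rose and 18 fell among 1193. The reported fit called 901 features in all, so the antisense share of the calls varied with the setting. The median log2 fold change was -0.10 over the intervals tested and -0.04 over all features; scaling by total counts moved these to 0.14 and 0.19.

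By the representative interval 12 names were called, 8 higher and 4 lower. In each of the 12 the 3 LMNB2 libraries lay apart from all 9 other libraries. The counts were low, from 2 (OPA1-AS1) to 171 (CKMT2-AS1) per library for all but PAX6-AS1.

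Antisense transcripts of zinc finger genes made up 5 of the 8 names that rose, all on chromosome 19. Their sense genes encode C2H2 zinc finger proteins, a large family of DNA-binding repressors clustered on that chromosome. ZNF649-AS1 (chr19:51888000-51900489, plus strand) overlaps ZNF649 over 11255 bp. It was at 0.0773, 0.0588 and 0.0676 CPM in GFP, 0.056, 0.0552 and 0.0877 under LMNA, 0.0604, 0.104 and 0.0522 under LMNB1, and 0.229, 0.281 and 0.249 in LMNB2. The LMNB2 values had no overlap with the rest, and the log2 fold change was 1.73 ± 0.26 (edgeR adjusted p = 0.00398). This was the only one of the 18 names whose call held in all 12 fits that left out a library.

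ZNF667-AS1 (chr19:56478132-56500691) starts next to ZNF667 and does not overlap it. It was at 0.0601, 0.0661 and 0.0282 CPM in GFP and 0.139, 0.16 and 0.128 in LMNB2 (log2 1.32 ± 0.30, edgeR adjusted p = 0.031). ZNF350-AS1 (chr19:51949112-51981545), antisense to a zinc finger gene whose protein binds BRCA1, was at 0.0945, 0.132 and 0.107 CPM in GFP and 0.247, 0.23 and 0.234 in LMNB2. Its LMNB1 libraries, at 0.109, 0.171 and 0.22 CPM, lay between, and the log2 fold change for LMNB2 was 1.01 ± 0.24. ZNF350-AS1 and ZNF649-AS1 are neighbours. ZNF433-AS1 (chr19:11987592-12046300) spans ZNF433 and ZNF878 and was at 0.241, 0.162 and 0.186 CPM in GFP and 0.38, 0.39 and 0.362 in LMNB2 (0.91 ± 0.19). ZNF790-AS1 (chr19:36797538-36828136) was at 0.524, 0.522 and 0.377 CPM in GFP and 0.784, 0.851 and 0.789 in LMNB2 (0.76 ± 0.17). In all 5 the GFP, LMNA and LMNB1 libraries lay below those of LMNB2.

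PARD6G-AS1 (chr18:80147899-80178457), antisense to a cell polarity adaptor gene, rose from 0.309, 0.228 and 0.27 CPM in GFP to 0.41, 0.595 and 0.455 in LMNB2 (log2 0.83 ± 0.18). ASH1L-AS1 (chr1:155562939-155621353) starts at the promoter of ASH1L, a histone methyltransferase gene, and also spans MSTO1. Its levels were 0.347 ± 0.0683 CPM in GFP and 0.575 ± 0.0574 in LMNB2 (0.72 ± 0.17). TSBP1-AS1 (chr6:32255148-32407754) lies in the major histocompatibility region over TSBP1 and BTNL2 and was at 0.278 ± 0.0284 and 0.498 ± 0.0679 CPM (0.82 ± 0.19). The levels in LMNA and LMNB1 were close to GFP for all 3, with log2 differences from -0.19 to 0.06.

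Of the 4 names that fell, PAX6-AS1 (chr11:31816582-31887031) had by far the highest counts. It starts at the promoter of PAX6, a master regulator of eye and brain development, but 99.4% of its counts lay in PAUPAR (chr11:31819122-31837080), another lncRNA on the same strand inside it. Its level was 10.8, 10.9 and 26 CPM in GFP, 16.3, 12.7 and 17.8 under LMNA, 12.8, 9.9 and 12 under LMNB1, and 6.9, 6.24 and 6.38 in LMNB2. The LMNB2 libraries were the lowest of all, GFP replicate 3 was the highest, and the log2 fold change was -1.29 ± 0.29 (edgeR adjusted p = 0.031). Without GFP replicate 3 it was -0.69 (adjusted p = 0.0212).

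MSC-AS1 (chr8:71844133-72118418), antisense to the musculin transcription factor gene and running over TRPA1, was at 0.249, 0.331 and 0.332 CPM in GFP and 0.175, 0.134 and 0.142 in LMNB2 (log2 -0.96 ± 0.19). OPA1-AS1 (chr3:193618584-193627362) lies wholly inside OPA1, whose protein fuses mitochondrial inner membranes. It had 10, 11 and 14 counts in GFP and 6, 2 and 3 in LMNB2 (log2 -1.37 ± 0.33). CKMT2-AS1 (chr5:81204071-81301510), over the mitochondrial creatine kinase gene CKMT2 and RASGRF2, was at 0.913 ± 0.0527 CPM in GFP and 0.596 ± 0.0133 in LMNB2 (-0.60 ± 0.15). The LMNA and LMNB1 means lay between those of GFP and LMNB2 for all 3.

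**Figure D2:**
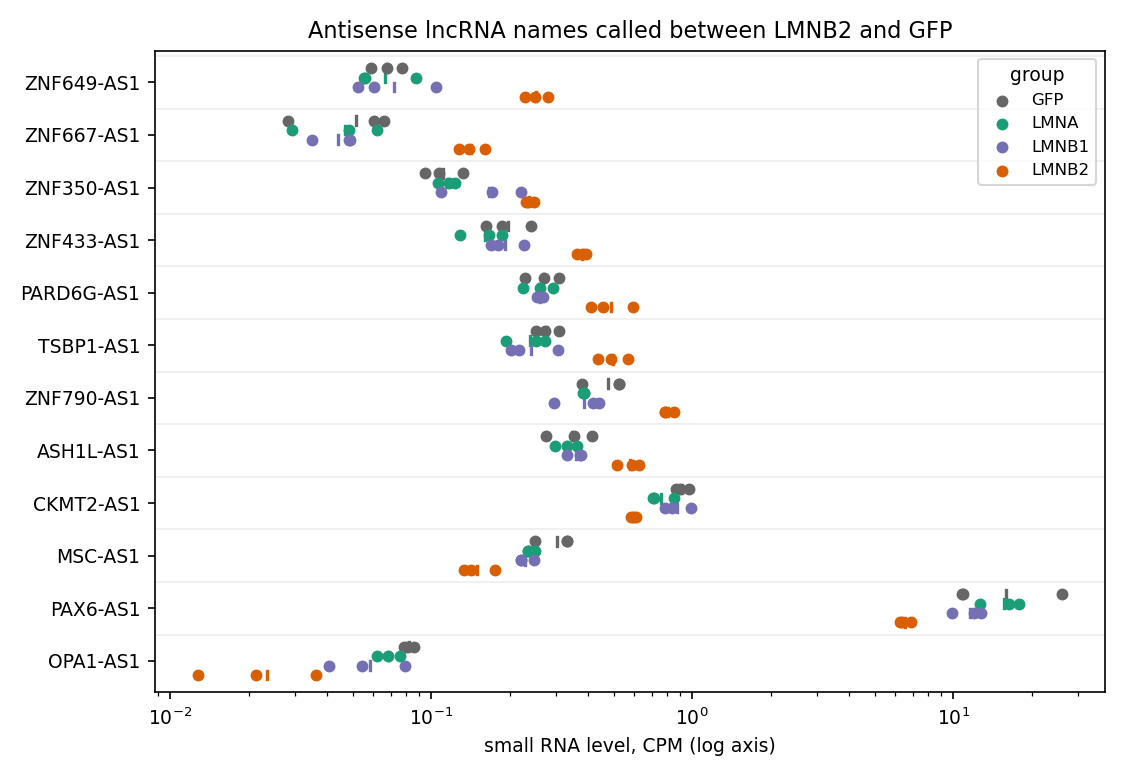
Small RNA level in CPM (log axis) of the 12 antisense names called between LMNB2 and GFP, one point per library and a short bar at each group's mean (n = 3). LMNB2 points lie to the right of all others for the 8 upper names and to the left for CKMT2-AS1, MSC-AS1, PAX6-AS1 and OPA1-AS1.

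A further 6 names were called only by an interval other than the representative one. THUMPD3-AS1, antisense to a tRNA methyltransferase gene, had 22 of 48 tested intervals called, all higher (log2 0.66 to 0.93). The interval of lowest p lies over SETD5, and its level was 0.225 ± 0.0205 CPM in GFP and 0.44 ± 0.0587 in LMNB2. ALOX12-AS1 (5 intervals) and LIPE-AS1 (3 intervals) also rose, whereas 1 interval each of DGUOK-AS1 and CELF2-AS2 and 2 of DIAPH2-AS1 fell. Their log2 fold changes were 1.13 to 1.26, 0.74 to 0.79, -1.08, -1.06 and -1.06. Intervals of 1 name share reads, so they are not separate observations.

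These calls depended on single libraries. The count of 82 was 4 without GFP replicate 2, 22, 1 and 1 without LMNB2 replicates 1, 2 and 3, 54 and 52 without LMNA replicates 1 and 2, and 44 and 39 without LMNB1 replicates 1 and 2. The LMNA and LMNB1 libraries are in neither group compared but are part of the same fit. With only the 6 libraries compared it was 1, ZNF649-AS1. It rose to 92 and 110 without GFP replicates 1 and 3 and to 89 without LMNA replicate 3. Calls over all features, 901 as reported, moved as well. They were 316 without GFP replicate 2 and 170, 51 and 60 without LMNB2 replicates 1, 2 and 3. Without LMNA replicates 1 to 3 they were 534, 537 and 862. They were 433 and 393 without LMNB1 replicates 1 and 2, 1390 and 2101 without GFP replicates 1 and 3, and 21 with only the 6 libraries.

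Over all 21 tested names that start with ZNF, 5 rose, 0 fell and 17 were higher in LMNB2 than in GFP, with a median log2 fold change of 0.39. The medians were -0.09 for LMNA and -0.02 for LMNB1. The 11 ZNF names on chromosome 19 were all higher (median 0.91), and 6 of the 10 elsewhere were (median 0.17). Other antisense names on chromosome 19 had medians of the same sign. All 27 tested there had a median of 0.53, with 24 higher. The 16 that do not start with ZNF had a median of 0.44, with 0 called by representative interval. Among these 16, LIPE-AS1 had 3 other intervals called, as given above. The 1773 tested features of all kinds on chromosome 19 had a median of 0.42, with 1425 higher and 245 called, of 901 called over all 33893 features. The shift was thus also present over the other features of the chromosome, and no test compared them.

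Library by library, the median over the 27 names, relative to the GFP mean on a log2(CPM + 0.01) scale, was -0.01, 0.16 and -0.04 in GFP, -0.06, -0.14 and 0.00 under LMNA, -0.06, -0.02 and -0.09 under LMNB1, and 0.59, 0.63 and 0.69 in LMNB2. Each LMNB2 library stood apart from the other 9. On chromosome 5, the 31 tested names had medians of -0.26, -0.43 and -0.47 in the LMNB2 libraries and between -0.16 and 0.02 in the others. All features on chromosome 5 had a median of -0.22, against -0.37 for the antisense names.

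**Figure D3:**
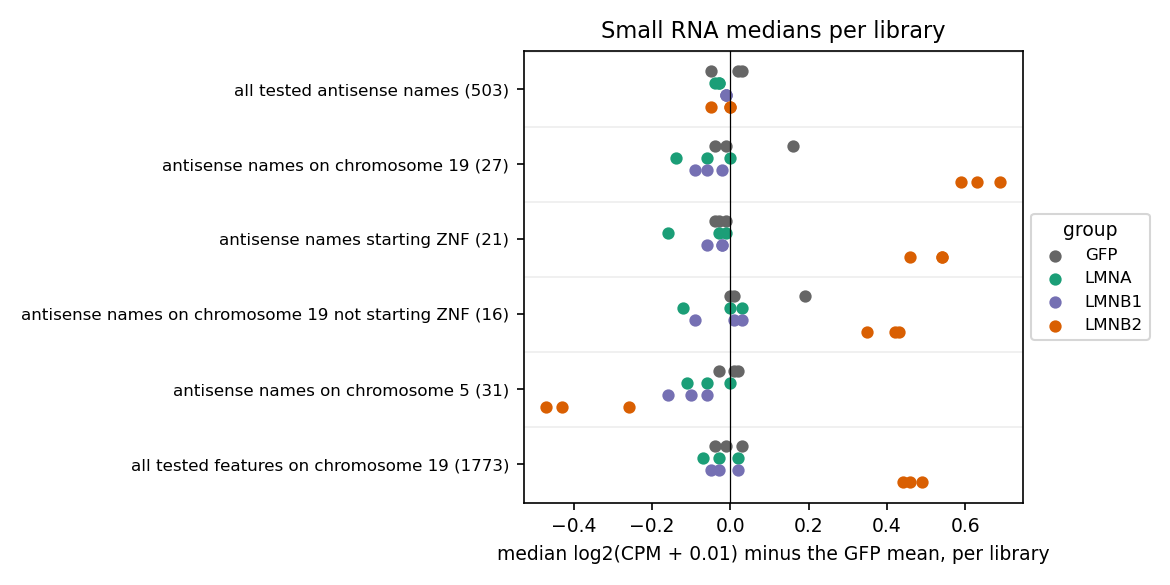
Median small RNA level per library of sets of tested names or features (set size in brackets), as log2(CPM + 0.01) minus the GFP mean. Points of the 3 LMNB2 libraries lie between 0.35 and 0.69 for the 3 chromosome 19 and ZNF sets of antisense names and between -0.26 and -0.47 for chromosome 5, while the median over all 503 names stays within 0.05 of 0 in every library.

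Across chromosomes the antisense names and all tested features had medians of like sign for LMNB2 in most cases. Names on chromosomes 17 (0.35, 20 names), 22 (0.27, 12 names) and 20 (0.18, 15 names) were higher, as were all features there (0.19, 0.24 and 0.19). Signs differed on chromosome 15, at 0.14 for 20 antisense names and -0.12 for all features, on chromosome 18, at 0.05 for 8 names and -0.19, and on chromosome 12, at -0.04 and 0.01. No test of these medians was made.

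**Figure D4:**
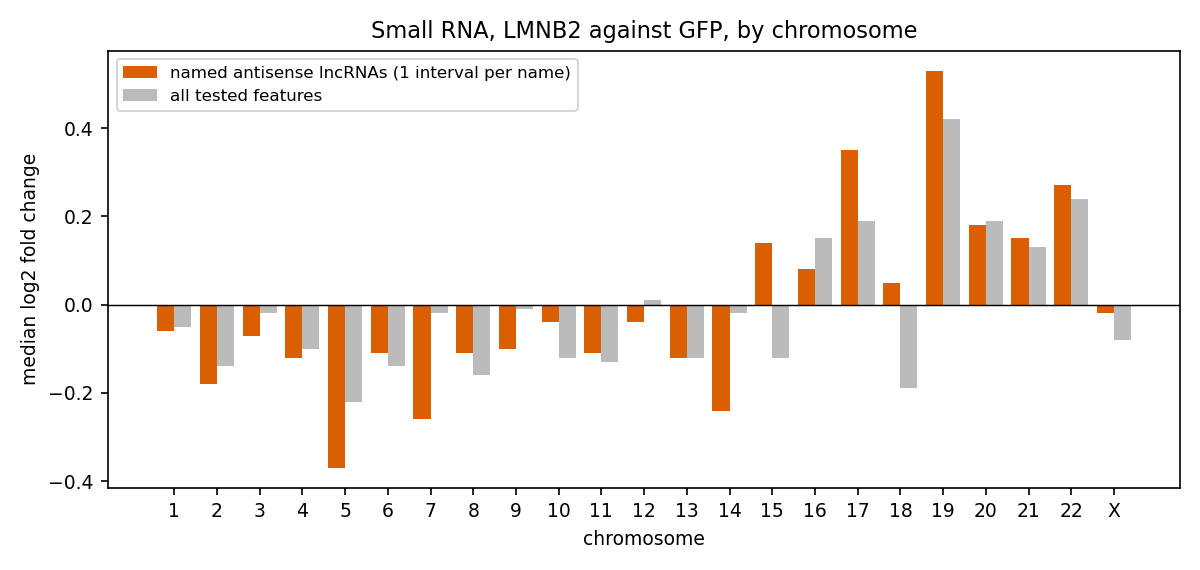
Median log2 fold change of small RNA counts between LMNB2 and GFP by chromosome, for tested antisense names (1 interval each, orange) and all tested features (grey). Chromosome 19 has the highest median in both, 0.53 and 0.42, and chromosome 5 the lowest, -0.37 and -0.22.

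The joint test asked whether the 3 lamins differ from each other. It called 130 intervals of 19 names (4.18% of those tested, background 1.93%; divergent promoter lncRNAs 2.7%, LINC 2.15%), and the LMNB2 level was the highest of the lamins in all 130. The intervals of a name share reads, so the difference between these shares was not tested. Of the 130, 62 were also called between LMNB2 and GFP. By representative interval 16 names were called, each highest in LMNB2. Beside 7 of the 8 names that rose against GFP, they included COX10-AS1, antisense to a heme A synthesis gene, at 0.459 ± 0.0631 CPM in LMNA, 0.418 ± 0.0308 under LMNB1 and 0.779 ± 0.0846 in LMNB2. MAPT-AS1, antisense to the tau gene, was at 0.0527 ± 0.0201, 0.0418 ± 0.00973 and 0.132 ± 0.00902 CPM (edgeR adjusted p = 0.0161). ZNF571-AS1 was at 0.197 ± 0.044 and 0.216 ± 0.0379 CPM in LMNA and LMNB1 and 0.454 ± 0.0305 in LMNB2, with GFP at 0.215, 0.272 and 0.468, so that GFP replicate 3 overlapped LMNB2. The count of 130 fell to 76, 76 and 81 without LMNA replicates 1 to 3 and to 60, 25 and 32 without LMNB1 replicates 1 to 3. It fell to 45, 6 and 9 without LMNB2 replicates 1 to 3, and it was 207 without GFP replicate 3. Calls over all features, 654 as reported, moved as well. In the same order they were 376, 507 and 451, then 296, 234 and 242, then 219, 117 and 120, and 2222 without GFP replicate 3.

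The lists of antisense names grouped by role gave no called name in any lamin or in the joint test by edgeR, other than the ZNF names. PAX6-AS1 and MSC-AS1, antisense to transcription factor genes and called lower in LMNB2, were not in these lists. Of the 27 widely studied antisense lncRNAs found, 19 were tested, with medians of -0.06, 0.04 and -0.02 for LMNA, LMNB1 and LMNB2. OIP5-AS1, a cytoplasmic lncRNA known for binding the RNA-binding protein HuR, was at 1.55 ± 0.274 CPM in GFP and 1.74 ± 0.08 in LMNB2. TTN-AS1, antisense to titin, was at 0.863 ± 0.116 and 0.613 ± 0.0402, and MCM3AP-AS1 at 0.286 ± 0.0517 and 0.423 ± 0.0414. None of these passed (edgeR adjusted p = 0.626, 0.105 and 0.142).

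Names antisense to cell cycle and genome maintenance genes numbered 17, of which 14 were tested (median -0.05 for LMNB2). CDKN2B-AS1, known as ANRIL and transcribed through the CDK inhibitor locus, was at 0.693 ± 0.0548 CPM in GFP, 0.672 ± 0.0499 under LMNA, 0.706 ± 0.0361 under LMNB1 and 0.646 ± 0.0334 in LMNB2. The LMNB2 values overlapped those of GFP (log2 -0.10 ± 0.14). PRC1-AS1, antisense to a spindle midzone gene, was at 0.961 ± 0.193 in GFP and 0.735 ± 0.0389 in LMNB2.

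In the list for developmental transcription factor genes, which left out PAX6-AS1 and MSC-AS1, 20 of 36 names were tested. Their median was -0.02 for LMNB2. NR2F2-AS1 was at 0.421, 0.566 and 0.946 CPM in GFP, 0.554, 0.324 and 1.00 under LMNA, 0.332, 0.361 and 0.336 under LMNB1, and 0.295, 0.326 and 0.192 in LMNB2. Replicate 3 was again the highest in GFP and LMNA, and the log2 difference of -1.22 ± 0.40 did not pass (edgeR adjusted p = 0.137). MEF2C-AS1 was at 0.401 ± 0.0295 CPM in GFP and 0.272 ± 0.0516 in LMNB2. Of the nuclear envelope and nuclear pore genes only 4 had an antisense name in the table and 1 was tested, TMPO-AS1. TMPO encodes lamina-associated polypeptide 2, and its antisense interval was at 0.122 ± 0.0263 CPM in GFP, 0.139 ± 0.0233 under LMNA, 0.128 ± 0.00975 under LMNB1 and 0.111 ± 0.0147 in LMNB2.

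Chromatin accessibility was read from ATAC-seq counts, which rise where a transposase can cut, in a window 125 bp wider on each side than the interval. Of the 8751 windows 8729 (99.7%) were tested. The median window had 1.18 times the count density of the 50 kb flanks, against 1.74 for divergent promoter lncRNAs and 0.995 for LINC names. Names in a head-to-head arrangement with the sense gene had a median accessibility of 0.327 CPM per kb and a median length of 16542 bp. Those that overlap with starts apart had 0.0975 CPM per kb at 11620 bp. The highest levels were in short windows. PCNA-AS1 had 15.9 CPM per kb, COA6-AS1 7.94, VPS13A-AS1 7.78, ANKRD33B-AS1 6.95, IER3-AS1 6.63 and HDAC4-AS1 6.46. PCNA-AS1, also first in small RNA among names without a small RNA inside, had 12.7, 10.5 and 9.7 CPM of ATAC counts in GFP and 11, 10.1 and 11.8 in LMNB2. Across the 335 tested names without a small RNA inside, small RNA and ATAC levels per kb had a Spearman correlation of 0.52, as a description over intervals that share libraries and length scaling.

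No antisense window was called in any lamin against GFP by edgeR, with backgrounds of 0.000611% for LMNA, 0.00305% for LMNB1 (0.00183% higher, 0.00122% lower) and 0.00244% for LMNB2 (0.00122% in each direction). An unadjusted p under 0.05 was reached by 295, 402 and 586 windows (3.38, 4.61 and 6.71%, against 5.19, 4.78 and 5.72% of all features). DESeq2 called 4, 0 and 0 of them, among 60, 62 and 116 features in all. The mitochondrial share of ATAC counts differed between groups, at 39.9 to 47.5% in GFP, 39.4 to 44.1% in LMNA, 32.8 to 34.1% in LMNB1 and 24.5 to 30.7% in LMNB2, and its part in the values here was not tested.

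Named by lowest p, as values only, GRM7-AS3 (chr3:6632333-6805474), antisense to a glutamate receptor gene, was at 3.81, 4.62 and 5.26 CPM in GFP and 5.71, 6.71 and 6.11 in LMNA. All LMNA libraries lay above GFP, with a log2 difference of 0.43 ± 0.10 and an adjusted p of 0.274 (edgeR). GK-AS1, antisense to the glycerol kinase gene, was at 0.948 ± 0.233 CPM in GFP and at 1.32 ± 0.147, 1.28 ± 0.224 and 1.21 ± 0.169 under LMNA, LMNB1 and LMNB2. STPG2-AS1 (log2 0.28) and SGO1-AS1 (0.15) complete the 4 higher for LMNA, and CHODL-AS1 (-0.27), FOXD1-AS1 (-0.58) and MCTP1-AS1 (-1.43 ± 0.49) are among the 4 lower. MCTP1-AS1 had 0.104 ± 0.0688 CPM in GFP and 0.0324 ± 0.0184 in LMNA, and its groups overlapped. ARHGAP31-AS1 was at 1.73 ± 0.187 CPM in GFP and at 1.39 ± 0.121, 1.37 ± 0.0675 and 1.37 ± 0.00118 in the same order. The 3 comparisons share the GFP libraries. For LMNB1, BRWD1-AS1 (log2 0.32), INTS9-AS1 (0.84) and GAS5-AS1 (0.47) were highest by this rule, and LHFPL3-AS1 (-0.28), GYG2-AS1 (-1.23) and ZNF630-AS1 (-0.59) lowest. For LMNB2 these were SCN1A-AS1 (0.23), FGF12-AS1 (0.41), EGFLAM-AS4 (0.50) and TMEM246-AS1 (0.34), and SHANK2-AS2 (-0.96), SOCS2-AS1 (-0.19) and NEXN-AS1 (-0.25).

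The joint test of the lamins called 4 windows (0.0458%, background 0.0916%), 3 of GRM7-AS3 and 1 of SGO1-AS1, all highest in LMNA and lowest in LMNB1. The GRM7-AS3 window of lowest p (chr3:6721290-6791130) was at 1.61, 1.81 and 2.00 CPM in GFP, 2.54, 2.77 and 2.62 under LMNA, 1.58, 1.51 and 1.88 under LMNB1, and 1.94, 2.24 and 1.96 in LMNB2 (edgeR adjusted p = 0.0182). The LMNA libraries did not overlap any other. SGO1-AS1, antisense to the gene of shugoshin, which protects centromeric cohesin, was called in a window of 413634 bp at 13.7 ± 0.327 CPM in LMNA, 10.3 ± 1.19 in LMNB1 and 11.5 ± 0.984 in LMNB2. By representative window none was called. HDAC2-AS2, antisense to a histone deacetylase gene, was among the 4 of lowest p at 49.4 ± 1.21 CPM in LMNA, 48.1 ± 0.237 in LMNB1 and 54.1 ± 0.714 in LMNB2 (edgeR adjusted p = 0.155). The 4 calls became 0 without any 1 LMNA library or without LMNB1 replicate 1 or 2, and 1 to 20 without each of the others. Calls over all features, 150 as reported, were 21, 8 and 8 without LMNA replicates 1 to 3. They were 9 each without LMNB1 replicates 1 and 2. Without each of the others they ran from 27 (GFP replicate 2) to 1118 (LMNB1 replicate 3).

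ATAC windows of the 12 names called in small RNA had log2 differences from -0.20 to 0.15. ZNF649-AS1 was at 3.04, 2.93 and 2.98 CPM in GFP and 2.9, 2.88 and 3.0 in LMNB2, and the groups overlapped (log2 -0.03 ± 0.08). The 8 names that rose in small RNA had ATAC log2 differences from -0.11 to -0.03. Among those that fell, MSC-AS1 was at 16.3, 16.7 and 16.3 CPM in GFP and 18.3, 18.2 and 18.4 in LMNB2 (0.15 ± 0.05, edgeR adjusted p = 0.853), CKMT2-AS1 was at 0.06, PAX6-AS1 at -0.03 and OPA1-AS1 at -0.20 ± 0.26. Over all 503 names the Spearman correlation of the small RNA and ATAC log2 fold changes was 0.07 for LMNA, -0.03 for LMNB1 and -0.21 for LMNB2. In counts this sparse these are given as descriptions and are not read as a relation.

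**Figure D5:**
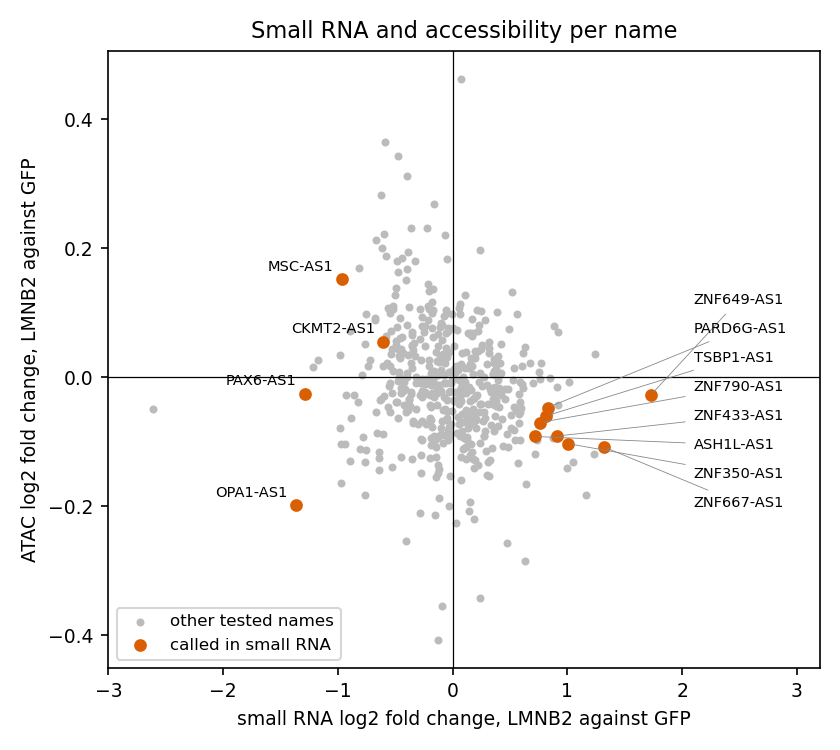
Log2 fold change between LMNB2 and GFP in small RNA (x axis) and ATAC counts (y axis) for each tested antisense name, with the 12 names called in small RNA in orange. The 8 orange points on the right lie between -0.11 and -0.03 on the ATAC axis, a narrow band compared with their spread of 0.72 to 1.73 in small RNA.

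By list, no antisense window was called in any lamin (edgeR). Medians of the log2 differences were between -0.05 and 0.07 for every list and lamin. The 4 windows antisense to nuclear envelope and pore genes were at 8.65 ± 1.12 CPM in GFP and 8.1 ± 0.306 in LMNB2 for TMPO-AS1, 5.01 ± 0.0303 and 4.87 ± 0.238 for SYNE1-AS1, 2.99 ± 0.138 and 3.19 ± 0.151 for LEMD1-AS1, and 0.554 ± 0.0954 and 0.705 ± 0.0725 for LMNTD2-AS1. The replicate values of GFP and LMNB2 overlapped in all 4 windows. CDKN2B-AS1 was at 35.7 ± 2.78 CPM in GFP and 35.9 ± 1.04, 35.8 ± 2.02 and 35.2 ± 0.277 under LMNA, LMNB1 and LMNB2, and OIP5-AS1 at 39.3 ± 1.7 in GFP and 37.6 ± 0.809 in LMNB2.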

How the data were processed

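Small RNA-seq and ATAC-seq were done on HEK293 cells. The authors deposited 1 table of raw counts per assay, whole numbers with totals that differ between libraries; per the submitters' processing notes the build is GRCh38. Which tools aligned and counted the reads, with or without strand, and how duplicate or multiply mapped reads and the ATAC cut-site shift were treated, is not given in the sources used here. Counts at overlapping features repeat the same reads. Starts are printed from 1, and intervals of RefSeq genes extend 25 bp beyond the gene.

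Groups came from the sample titles. All 12 libraries of an assay were fitted together over the whole table with edgeR 4.0.16 (R 4.3.3): filterByExpr, TMM scaling, robust quasi-likelihood tests, prior count 2, Benjamini-Hochberg adjustment over all tested features, and calls at an adjusted p under 0.05. The biological coefficient of variation was 0.227 in small RNA and 0.085 in ATAC. Each lamin was compared with GFP, and the 3 lamins jointly. The fit was tested on simulated data in which 200 features per assay were changed 4-fold in LMNB2. It recovered 87.5% of them in small RNA, with 18 false calls, and 99.0% in ATAC, with 16. Features of low count were not changed, and smaller changes, such as those called here, were not simulated. Alternatives were DESeq2 1.42.0 (size factors, and its own test), total counts, counting without the low-count filter, a minimum mean of 10 counts, fits of the compared groups alone, a replicate block, and leaving out each library.

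The members, the 4 lists by role and the ZNF names were chosen with earlier results of these data known. Names described in full were, per assay and comparison, up to 12 called names per direction. Where fewer than 4 names were called, the 4 of lowest p per direction are given as values. The 6 highest per kb (small RNA with and without another class inside, and ATAC) and 2 to 4 examples per list were added. The HOX clusters and the ATAC flanks, except for density, were not analysed here.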

Additional observations from a re-analysis of the deposited data

Results flagged for a closer look

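The effects of the 3 lamins on small RNA counts differed between lamins for 16 antisense names in the joint test (edgeR's quasi-likelihood test, Benjamini-Hochberg adjustment over all 33893 features), each with LMNB2 as the highest lamin. On chromosome 19 the adjusted p was 0.00129 for ZNF649-AS1, 0.00231 for ZNF790-AS1, 0.00526 for ZNF433-AS1, 0.0122 for ZNF667-AS1, 0.0186 for ZNF571-AS1, 0.0314 for ZNF529-AS1 and 0.0314 for LIPE-AS1. On chromosome 17 it was 0.0139 for COX10-AS1, 0.0161 for MAPT-AS1, 0.02 for ALOX12-AS1 and 0.0473 for SPAG5-AS1. On other chromosomes it was 0.00741 for TSBP1-AS1, 0.0141 for PARD6G-AS1, 0.0181 for HORMAD2-AS1, 0.0269 for ASH1L-AS1 and 0.0314 for ADAMTSL4-AS1. The joint test does not say which pair of lamins differs. All 16 had a log2 difference from GFP below 0 for LMNA and above 0 for LMNB2, from -0.68 (ZNF571-AS1) to -0.01 (ZNF649-AS1) and from 0.35 (HORMAD2-AS1) to 1.73 (ZNF649-AS1). The 3 differences share the GFP libraries.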

How the results depend on the processing

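For LMNB2 against GFP in small RNA, the 82 called antisense intervals became 44 when scaled by total counts, 148 with no count filter and 1 with only the 2 groups fitted, and from 1 to 110 when 1 library was left out. For the joint test in small RNA, the 130 became 56 when scaled by total counts, 248 when the 3 lamin groups were fitted alone, and from 6 to 207 when 1 library was left out. LMNB1 against GFP in small RNA gave 7 calls with no count filter and 0 to 0 when a library was left out, and LMNA gave 0 to 4. In ATAC, LMNA against GFP gave 5 calls with total counts only, 4 with DESeq2's test, 4 with the replicate number as a block and 0 to 7 when a library was left out (7 without GFP replicate 3, 4 without LMNB1 replicate 3). LMNB1 gave 2 with total counts only and LMNB2 gave 0 throughout. The joint ATAC test gave 1 with total counts only, 20 with DESeq2's test, 22 with the lamin groups fitted alone, 14 with the replicate block and 0 to 20 when a library was left out. Calls over all features moved too. For LMNB2 in small RNA 901 became 282 with total counts, 1745 with no count filter and 21 with 2 groups. LMNB1 gave 127 with no count filter. For the joint test 654 became 275 with total counts and 3887 with the lamins alone. In ATAC, LMNA gave 184 with total counts and 60 each with DESeq2's test and the replicate block. LMNA also gave 222 without GFP replicate 3 and 39 without LMNB1 replicate 3. With total counts LMNB1 gave 110 in ATAC. The joint ATAC test gave 95, 754, 821 and 553 where antisense calls were 1, 20, 22 and 14. The cause was not tested. Where a library was left out of a group, the remaining 2 were assumed to vary like the other groups.

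Deviations of same-numbered libraries had correlations from -0.04 to 0.23 in small RNA and from -0.08 to 0.19 in ATAC. In each assay 2 of 18 such pairs were over 0.1. Differently numbered libraries had correlations from -0.21 to 0.07 and from -0.15 to 0.09, with 0 of 36 pairs over 0.1 in each. These values do not settle whether replicate numbers pair the samples. With the replicate block, small RNA gave 66 antisense calls for LMNB2, among 729 features called in all. The joint test gave 107 among 555. For the 18 called names no fit that gave a value turned the direction. DESeq2's test gave an adjusted p for 11 of them (none for ZNF649-AS1, ZNF667-AS1, ZNF350-AS1, OPA1-AS1, ALOX12-AS1, CELF2-AS2 and DIAPH2-AS1), the fit of the 2 groups alone covered 16 and the minimum mean of 10 counts 17. Over these names, the call was kept in 113 of the fits that left out a library and lost in 103. Differences of several SEs could miss the threshold, such as ZSCAN16-AS1 for LMNB1 (0.69 ± 0.18) and NR2F2-AS1 for LMNB2 (-1.22 ± 0.40).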
